A study of Saccharomyces cerevisiae with 12 samples.

Results

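The MMS response of yeast that lack Anc1 was set against the MMS response of wildtype yeast, gene by gene, over all 12 arrays of the series. For each gene the change in anc1Δ (MMS-treated minus untreated) had the change in wildtype subtracted from it on the log2 scale, so that a positive difference means a response that was higher in anc1Δ and a negative difference one that was lower. All 12 arrays entered this contrast, 3 in each of 4 groups, and 5656 genes were read, each from its brightest probe set. A difference was called where limma's p, adjusted over all 9275 probe sets, was under 0.05 and the responses differed at least 1.5-fold.

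The strains were haploid Saccharomyces cerevisiae of the BY4741 background (MATa his3Δ1 leu2Δ0 met15Δ0 ura3Δ0), either wildtype or with ANC1 deleted, and RNA was hybridized to Affymetrix YG-S98 arrays. Each strain was either left untreated or exposed to methyl methanesulfonate (MMS). For each strain 3 independent colonies were grown to log phase in YPD. The sources used here state neither the dose nor the duration of MMS, nor whether treated cultures were independent, so p-values may measure technical spread. The wildtype treated samples are called untreated in a second label field and 3 anc1 samples are described as wildtype in another, and the titles were followed throughout.

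MMS methylates DNA bases, which blocks replication forks and activates the Mec1, Rad53 and Dun1 checkpoint kinases and, with them, genes such as RNR3 that raise nucleotide supply. As a general toxicant it also sets off the environmental stress response of yeast, in which chaperone and carbohydrate reserve genes rise and ribosome genes fall, and the Gcn4 program of amino acid synthesis. Anc1 (Taf14, gene TAF14) is a YEATS-domain protein that belongs to TFIID, TFIIF, SWI/SNF, RSC, INO80, NuA3 and Mediator, all of which act with RNA polymerase II.

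The labels were checked before the contrast was read. TAF14 lay between 237 and 356 in untreated wildtype, between 175 and 198 in treated wildtype and between 6.87 and 15.7 on the 6 anc1Δ arrays, below the 25th percentile of all probe sets (29.4). MAG1, the DNA glycosylase gene that MMS induces, was high on every array labelled treated, as given below. The 7 a-specific mating genes summed to between 11923 and 13551 in wildtype and between 1895 and 2473 in anc1Δ, the 4 alpha-specific genes to between 140.0 and 274, and 6 genes of meiosis to between 216 and 300.1 over all arrays. The strain list of the study gives the anc1 deletion as marked with URA3 and its RNA methods as marked with geneticin resistance, and URA3 was between 7.23 and 17.2 on all 12 arrays, anc1Δ included. Of the other marker genes of the background, MET17 (MET15) lay between 5.92 and 13.3 and LEU2 between 23.2 and 64.5. HIS3 lay between 755 and 1366 on all arrays, and the source of that signal was not tested. The array medians lay between 115 and 119.8 in treated wildtype and were at most 109.1 in the other groups. Array replicates correlated with r from 0.989 to 0.997. One array stood apart in some lists: untreated wildtype replicate 3 was low in stress genes, and lists are given with and without it where it matters. The control probe sets at the 3' and 5' ends of actin, whose ratio rises as RNA is degraded, had a ratio between 1.47 and 1.85 on untreated arrays and between 3.31 and 3.998 on treated ones, over both strains. The same ratio for SRB4 rose from between 4.66 and 5.91 to between 16.1 and 19.3 in wildtype, but from between 4.50 and 6.28 to between 9.74 and 11.8 in anc1Δ. The part of these ratios in the results was not tested.

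MMS changed 48.5% of the genes in wildtype (27.7% up, 20.8% down) and 31.7% in anc1Δ (16.0% up, 15.7% down). Of 5656 genes, 1347 had a called difference between the strains' MMS responses (23.8%). The response was lower in anc1Δ for 805 genes (14.2%) and higher for 542 (9.58%). Most of these genes were ones whose change in wildtype was larger. Among the 805, 394 rose in wildtype and were not called in anc1Δ, 175 rose in both strains, 101 fell in anc1Δ alone and 21 rose in wildtype but fell in anc1Δ. Among the 542, 245 fell in wildtype and were not called in anc1Δ, 192 fell in both, 31 rose in anc1Δ alone and 14 rose in both. The responses and the difference share arrays, so these counts describe the difference and are no separate evidence for it. The 1569 genes that rose in wildtype had a median response of 1.04 there and of 0.61 in anc1Δ. Over all genes the median difference was -0.08. Centring each array on its median moved that median by 0.08 and the calls to 627 lower and 666 higher, so that the share of higher calls went from 40.2% to 51.5%. Which side holds more genes therefore turns with the scaling, while 1169 genes were called with the same sign under both.

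**Figure D1:**
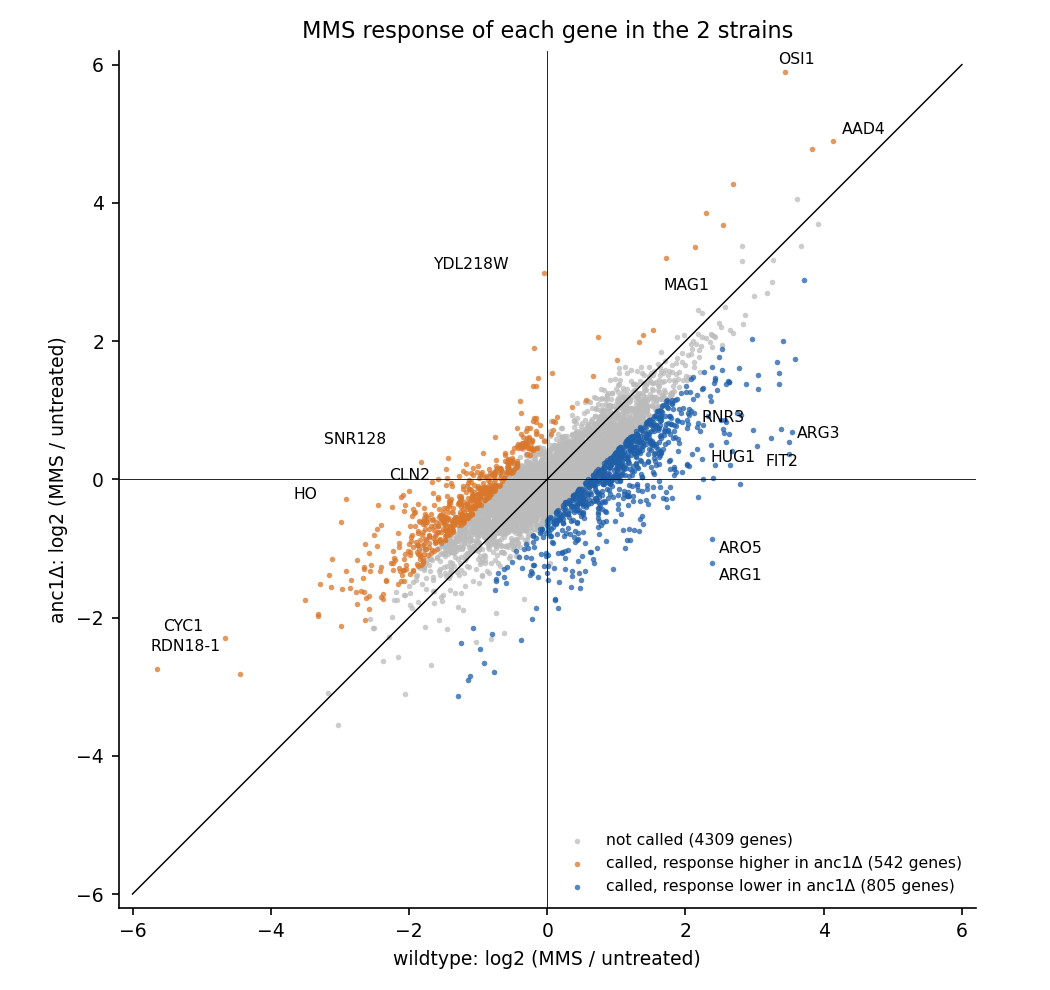
MMS response of 5656 genes, log2 of MMS-treated over untreated intensity, in wildtype (x axis) and anc1Δ (y axis), means of 3 arrays a group; the diagonal marks equal responses. Blue points are the 805 genes with a called lower response in anc1Δ, orange points the 542 with a called higher one and grey points the 4309 others. ARG1 and ARO5 lie right of and below both zero lines, and OSI1 and YDL218W lie far above the diagonal.

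ARG1 and ARG3, genes of arginine synthesis, were among the 4 lowest differences of the named genes. ARG1, which encodes argininosuccinate synthetase of the arginine pathway, had an intensity of 482, 544 and 503 in untreated wildtype, 2540.1, 2697 and 2763 in MMS-treated wildtype, 1272, 1239 and 1270.2 in untreated anc1Δ and 620.2, 517 and 505 in MMS-treated anc1Δ. It rose in wildtype and fell in anc1Δ, where untreated cells already stood above untreated wildtype, and no MMS-treated array of one strain overlapped the other's. The difference of responses was -3.60 (SE 0.14, limma adjusted p = 1.5e-08), the lowest of the genes named by the rule. ARG3, the ornithine carbamoyltransferase gene, gave 26.5, 26.3 and 30.0 in untreated wildtype, 311, 324 and 295 in MMS-treated wildtype, 116, 83.5 and 135 in untreated anc1Δ and 157, 154 and 168 in MMS-treated anc1Δ. Its log2 response was 3.49 in wildtype and 0.54 in anc1Δ, a difference of -2.95 (SE 0.20, limma adjusted p = 1.3e-06). ARG7 and ARG4, both of arginine synthesis, did not pass the test of their own response in anc1Δ (0.00 and 0.21) against 2.25 and 2.43 in wildtype. In all, 7 of 15 genes of arginine and glutamate family synthesis were called lower and none higher (1 higher without untreated wildtype replicate 1), with a median of -0.53 beside -0.08 over all genes. The members called besides those were ORT1, CPA1 and ARG2.

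Lysine, histidine and aromatic amino acid synthesis followed, apart from some members, and the branched-chain and sulfate lists did so less. Of 9 lysine genes, 6 were called lower (median -0.87). LYS1, saccharopine dehydrogenase, was 369, 325 and 347 in untreated wildtype, 2086, 2147 and 2009.8 in MMS-treated wildtype, 263, 261 and 296 in untreated anc1Δ and 508, 452 and 502 in MMS-treated anc1Δ. The treated wildtype arrays all lay above every other array, and the difference was -1.75 (SE 0.13, limma adjusted p = 2.1e-06). LYS20, homocitrate synthase, rose in both strains (2.42 and 1.46) with treated intensities of 11275, 10842 and 10630.0 in wildtype and 12622, 12061 and 11985 in anc1Δ. Its difference was -0.96. Of 21 genes of histidine and aromatic amino acid synthesis, 14 were called lower and none higher (median -0.87), with list medians of 0.68 for the response in wildtype and -0.20 in anc1Δ. ARO1, the pentafunctional shikimate pathway enzyme, measured 1291, 1297 and 1323 in untreated wildtype, 3660.1, 3887 and 3703 in MMS-treated wildtype, 1299, 1382 and 1466 in untreated anc1Δ and 1145, 1148 and 1217 in MMS-treated anc1Δ. It rose on every treated wildtype array and was slightly lower on the treated anc1Δ arrays than on the untreated ones (difference -1.76 (SE 0.11, limma adjusted p = 9.5e-07)). HIS4 had a response of 0.50 in wildtype, short of the fold limit, and fell by 1.11 in anc1Δ (difference -1.61). Branched-chain synthesis was mixed: ILV6, ILV2 and ILV3 were called lower (-0.95, -0.75 and -0.69) among 5 of 11, and LEU1 higher (0.79). Its median difference was -0.59, and -0.31 without untreated wildtype replicate 3, and its median response in wildtype was -0.28. In sulfate assimilation and methionine synthesis 10 of 33 were lower and 2 higher (4 under median centring), beside 14.2% and 9.58% of all genes. The median of that list was -0.26, with HOM3, aspartate kinase, at -1.54 and MET10, a sulfite reductase subunit, at -1.34. GCN4 itself, whose protein activates many of these genes and is regulated mainly at translation, had a difference of -0.24 (95% interval -0.51 to 0.04, limma adjusted p = 0.18) and was looked up after the lists had been seen.

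**Figure D2:**
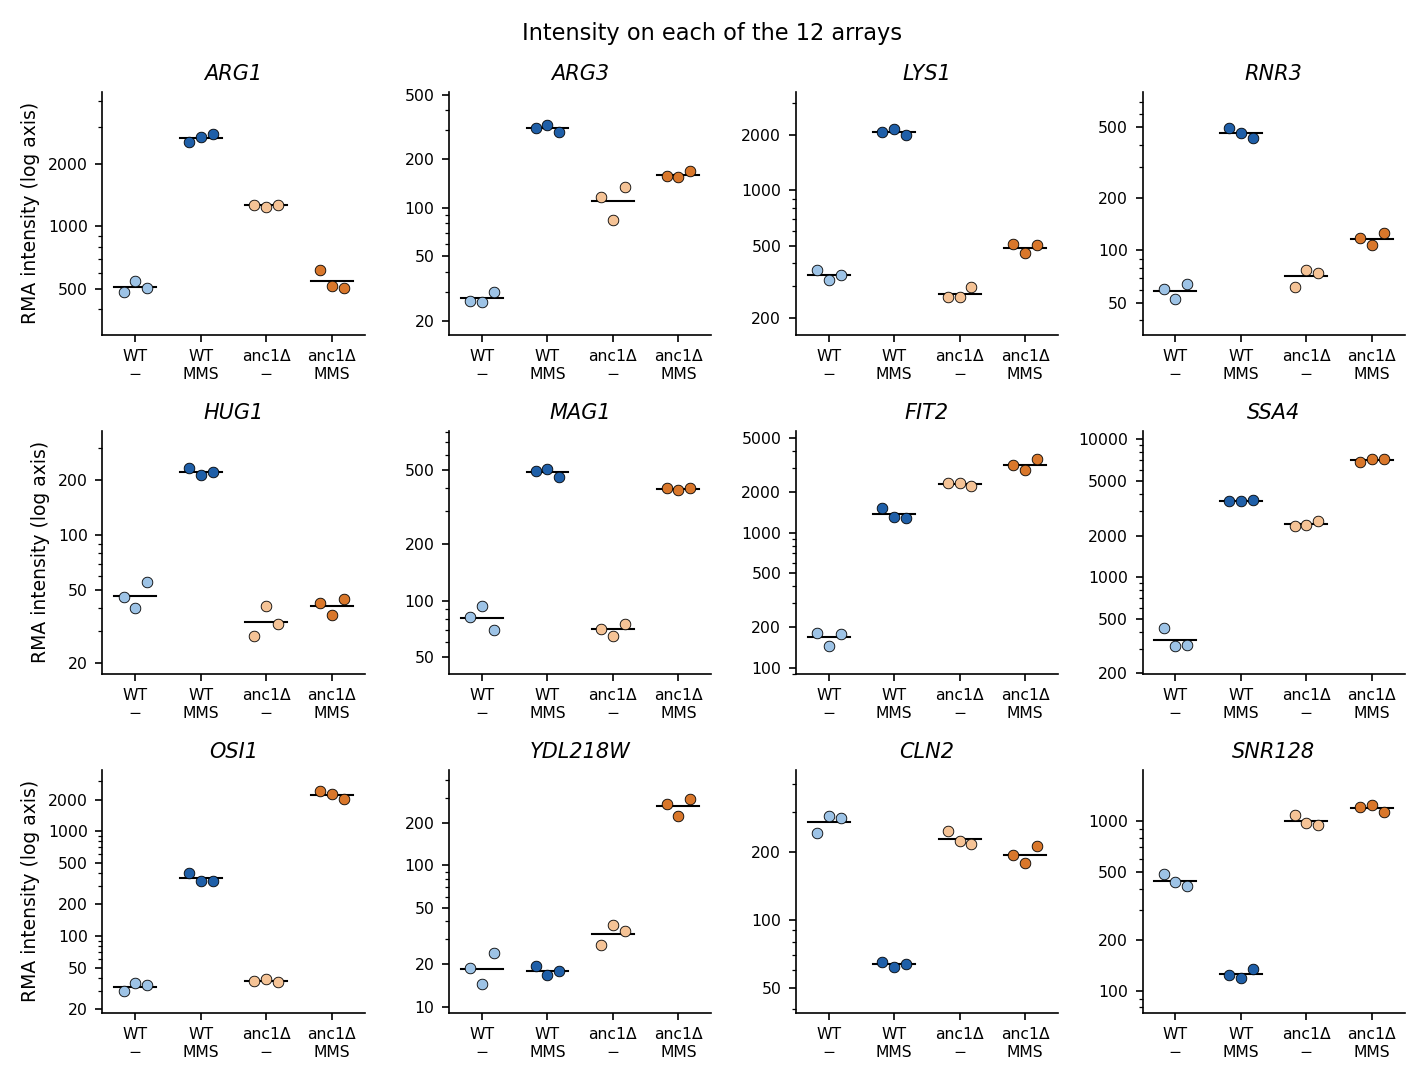
RMA intensity (log axis) of 12 genes on each of the 12 arrays, untreated (−) and MMS-treated, wildtype in blue and anc1Δ in orange; each dot is 1 array and each bar the mean of 3 log2 values. ARG1 rises in wildtype and falls in anc1Δ, MAG1 rises in both strains, and YDL218W stands out on the 3 treated anc1Δ arrays.

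RNR3, HUG1 and other genes of the DNA damage response rose less in anc1Δ, while MAG1, DDI1 and DDR48 were not called. Of 22 genes of the DNA damage response, 14 were called lower and none higher, with a median of -0.74. Their median response was 1.61 in wildtype and 0.70 in anc1Δ. RNR3, the damage-inducible large subunit of ribonucleotide reductase, measured 60.5, 53.1 and 64.2 in untreated wildtype, 497, 465 and 434 in MMS-treated wildtype, 62.2, 77.6 and 74.7 in untreated anc1Δ and 118, 107 and 125 in MMS-treated anc1Δ. Every treated anc1Δ array lay above the untreated ones but far below treated wildtype, and the difference was -2.27 (SE 0.16, limma adjusted p = 1.5e-06). HUG1, a small inhibitor of ribonucleotide reductase that the checkpoint induces, measured 45.9, 40.2 and 55.6 in untreated wildtype, 231, 212 and 220.3 in MMS-treated wildtype, 28.1, 41.1 and 32.8 in untreated anc1Δ and 42.6, 36.6 and 44.9 in MMS-treated anc1Δ. In anc1Δ the treated and untreated arrays overlapped, and the difference was -1.94 (SE 0.21, limma adjusted p = 4.0e-05). RNR2, the reductase small subunit, had a difference of -0.70 and RNR1, the main large subunit, -0.78, a call lost without treated wildtype replicate 1, treated anc1Δ replicate 2 or untreated anc1Δ replicate 3. RNR4 reached -0.53 (limma adjusted p = 0.0048), under the fold limit.

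DUN1, the checkpoint kinase gene, and RFX1, which encodes the repressor of RNR genes, were called lower at -0.80 and -0.79, the 2 calls among 15 checkpoint genes, a share close to the 14.2% of all genes that were called lower. DIN7, a mitochondrial nuclease gene, was at -1.05 and UBI4, polyubiquitin, at -1.20. UBI4 measured 941, 827 and 732 in untreated wildtype, 4841, 4716 and 5333 in MMS-treated wildtype, 1796, 1804 and 1852 in untreated anc1Δ and 4771, 4801 and 4632 in MMS-treated anc1Δ. Its treated levels overlapped between the strains while its untreated level was higher in anc1Δ, so that its smaller response came with a higher start. MAG1, by contrast, measured 81.8, 93.5 and 69.9 in untreated wildtype, 491, 503 and 458 in MMS-treated wildtype, 70.9, 65.1 and 74.9 in untreated anc1Δ and 399.8, 388 and 399 in MMS-treated anc1Δ. It rose on every treated array of both strains, and the difference was -0.08 with a 95% interval of -0.41 to 0.25 (limma adjusted p = 0.71). DDR48, a stress protein gene, gave -0.06 (-0.29 to 0.18), and a second, dimmer probe set of it -0.55. DDI1, which shares a promoter region with MAG1, gave -0.33 (-0.67 to 0.00). In nucleotide excision repair 5 of 17 genes were called lower (3 under median centring), among them RAD7 (-0.999), RAD4 (-1.11) and RAD2 (-0.64, a call lost without untreated anc1Δ replicate 3). In homologous recombination 1 of 18 was, a share below the 14.2% of all genes. This was RAD54 at -0.63 (SE 0.15, limma adjusted p = 0.0073), which fell short without untreated wildtype replicate 1 and under both median centring and quantile normalization.

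**Figure D3:**
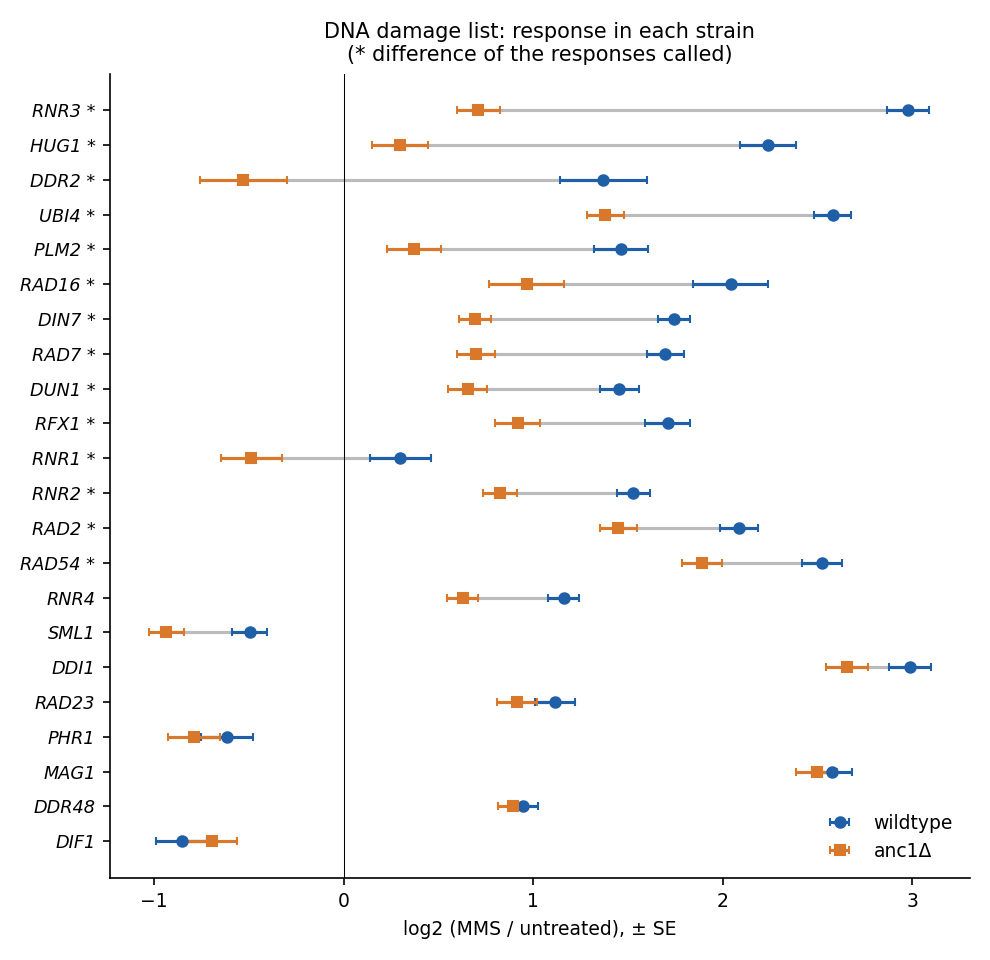
Log2 response to MMS (x axis, ± SE of the limma fit, 3 arrays a group) of the 22 genes of the DNA damage list in wildtype (blue circles) and anc1Δ (orange squares), ordered by the difference; stars mark the 14 called differences. RNR3 and HUG1 have the widest gaps, and the 2 symbols of MAG1 and DDR48 nearly coincide.

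Postreplication repair is the pathway in which forks pass lesions by translesion synthesis or template switching. None of its 12 genes was called, beside 23.8% of all genes, apart from SRS2 under other scalings (list median -0.10). RAD6 and RAD18, which ubiquitinate PCNA, had differences of 0.07 (-0.22 to 0.37) and -0.17 (-0.48 to 0.13). MMS2 and UBC13, the conjugating pair for template switching, gave 0.01 (-0.26 to 0.27) and 0.22 (-0.11 to 0.54), and RAD5, their ligase, -0.38 (-0.79 to 0.02). The translesion polymerase genes REV1, REV3 and RAD30 gave -0.31 (-0.70 to 0.07), -0.53 (-1.01 to -0.06) and -0.42 (-0.77 to -0.06), with limma adjusted p of 0.2, 0.086 and 0.072. SRS2, a DNA helicase gene, had 0.52 (0.20 to 0.85) with a limma adjusted p of 0.021, below the fold limit. It was called higher under median centring (0.61), under quantile normalization (0.62) and without treated anc1Δ replicate 1 (0.64). Several of these intervals reach past 1.5-fold on the log2 scale, so a difference of that size cannot be set aside for REV1, REV3, RAD5, RAD30 and SRS2. No gene of DNA replication (39), TFIID (15), TFIIF (3), RSC (16) or NuA3 (6) was called, beside 23.8% of all genes. For lists as small as TFIIF and NuA3 a count of none says little. INO80 had 1 of 15 called lower, a share below the 14.2% of all genes, and that call was lost under median centring. TAF14, the deleted gene, is counted in TFIID, TFIIF, SWI/SNF, INO80 and NuA3, and its difference of 0.58 has no reading in anc1Δ. DNA replication and NuA3 each had 1 gene called higher under median centring, and at most 1 in a direction without 1 array. SWI/SNF had 2 of 12 lower, SNF6 (-0.79) and SNF11 (-1.10), and Mediator SRB2 higher (1.03) and MED2 lower (-0.68) of 25, shares that were near or below the 23.8% of all genes called.

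Stress genes gave many calls. In all, 27 of 33 general stress genes, targets of the activators Msn2 and Msn4, were called lower (median -1.35). Here the untreated cells differed. Against untreated wildtype, the list median was 2.21 higher in untreated anc1Δ, and under MMS the gap was 0.88. The median response was 1.29 in wildtype and 0.04 in anc1Δ. HSP26, a small heat shock protein, measured 654, 957 and 839 in untreated wildtype, 3767, 4145 and 4667 in MMS-treated wildtype, 5636, 4996 and 5110.4 in untreated anc1Δ and 7892, 7415 and 6979.9 in MMS-treated anc1Δ. Untreated anc1Δ was already above treated wildtype, and the difference was -1.87 (SE 0.19, limma adjusted p = 2.5e-05). SSA4, an inducible Hsp70, measured 426, 318 and 319 in untreated wildtype, 3544, 3585 and 3595 in MMS-treated wildtype, 2336, 2368 and 2544 in untreated anc1Δ and 6822, 7119.8 and 7156 in MMS-treated anc1Δ, and there MMS raised both strains (difference -1.81 (SE 0.15, limma adjusted p = 6.9e-06)). NQM1, a transaldolase paralog, measured 143, 136 and 121 in untreated wildtype, 459, 487 and 442 in MMS-treated wildtype, 2127, 1635 and 1900.0 in untreated anc1Δ and 1554, 1483 and 1638 in MMS-treated anc1Δ, with every anc1Δ array above wildtype (difference -2.07).

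Relative to the untreated wildtype mean, the general stress median was 0.24, 0.11 and -0.46 on untreated wildtype replicates 1, 2 and 3, so replicate 3 stood apart. Without it 28 of 33 were called lower, with a median of -1.21. All 7 trehalose genes were called lower with and without that array, with medians of -1.33 and -1.12. TPS1, trehalose-6-phosphate synthase, measured 1750.0, 1762 and 1078 in untreated wildtype, 4336, 4296 and 4367 in MMS-treated wildtype, 4136, 4076 and 4106 in untreated anc1Δ and 5460.5, 5178 and 5248 in MMS-treated anc1Δ (difference -1.17 (SE 0.21, limma adjusted p = 0.0017)). Of 13 glycogen genes 9 were lower (median -1.72), and 10 without replicate 3 (-1.27). GDB1, the debranching enzyme, measured 276, 201 and 211 in untreated wildtype, 567, 521 and 457 in MMS-treated wildtype, 589.8, 600.4 and 527 in untreated anc1Δ and 345, 334 and 361 in MMS-treated anc1Δ. It rose in wildtype and fell in anc1Δ, from an untreated level in anc1Δ that overlapped treated wildtype (difference -1.90 (SE 0.18, limma adjusted p = 1.4e-05)). GPH1, glycogen phosphorylase, had no called response in wildtype (0.01) and fell by 1.46 in anc1Δ.

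Of 28 heat shock and chaperone genes 13 were lower and 1 higher (median -0.57), and 6 of the 13 are also in the general stress list. SSA3, another inducible Hsp70, was the higher one, at 0.71 (SE 0.12, limma adjusted p = 9.0e-04): it measured 110.3, 109 and 122.7 in untreated wildtype, 302, 297 and 294 in treated wildtype, 507, 455 and 484 in untreated anc1Δ and 1999, 2090.1 and 2072 in treated anc1Δ. It rose in both strains, from an untreated level already above treated wildtype in anc1Δ. Of 33 proteasome genes 33 rose in wildtype and 32 in anc1Δ, with medians of 1.42 in wildtype and 1.21 in anc1Δ. Of these 33, 3 were called lower, a share below the 14.2% of all genes: PUP3 (-0.66), RPN6 (-0.70) and SCL1 (-0.71). The calls of RPN6 and SCL1 were lost without untreated wildtype replicate 3, which left 1 of 33. RPN4, which encodes the activator of proteasome genes, was at -0.73 (SE 0.22, limma adjusted p = 0.026), a call lost when any of 5 arrays was left out.

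**Figure D4:**
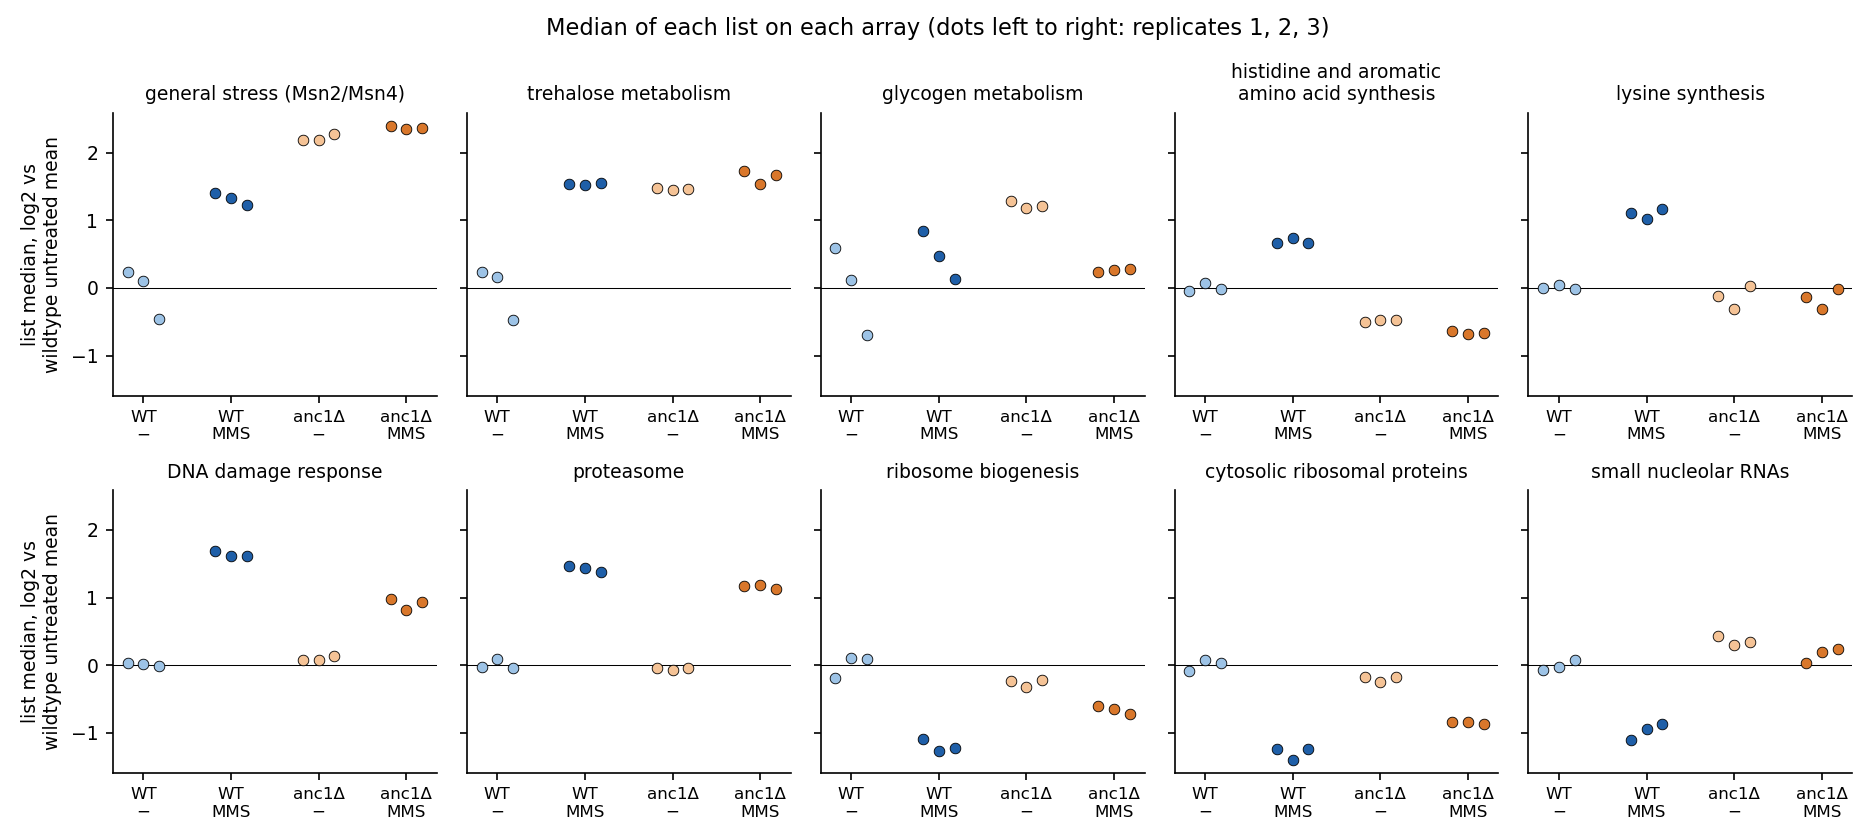
Median over the genes of 10 lists on each array, as log2 difference from each gene's untreated wildtype mean (y axis); each dot is 1 array, wildtype in blue and anc1Δ in orange, untreated (−) and MMS-treated. General stress genes in untreated anc1Δ stand at 2.18, 2.19 and 2.28, above treated wildtype at 1.41, 1.32 and 1.23, and untreated wildtype replicate 3 is the lowest dot for stress, trehalose and glycogen genes.

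A smaller set of genes rose more in anc1Δ: 31 rose in anc1Δ with no call in wildtype and 14 rose in both strains. Others fell more there: among the genes called lower, 101 fell in anc1Δ alone and 16 fell in both strains. YDL218W, of unknown function, measured 18.7, 14.5 and 23.8 in untreated wildtype, 19.5, 16.8 and 17.8 in MMS-treated wildtype, 27.4, 37.6 and 34.3 in untreated anc1Δ and 272, 222 and 294 in MMS-treated anc1Δ. It was low on the other 9 arrays and stood out on the treated anc1Δ arrays, with the highest difference of the named genes, 3.04 (SE 0.24, limma adjusted p = 4.3e-06). OSI1 measured 29.6, 35.6 and 33.8 in untreated wildtype, 395, 338 and 337 in MMS-treated wildtype, 37.0, 38.7 and 36.5 in untreated anc1Δ and 2399, 2284 and 2009 in MMS-treated anc1Δ. The untreated arrays of both strains lay close together, and treated anc1Δ was above treated wildtype on every array (difference 2.46 (SE 0.15, limma adjusted p = 6.0e-07)). GPX2, a glutathione peroxidase, measured 133, 153 and 149 in untreated wildtype, 471, 472 and 482 in MMS-treated wildtype, 103.5, 97.0 and 102 in untreated anc1Δ and 953, 939.8 and 896 in MMS-treated anc1Δ (difference 1.49 (SE 0.12, limma adjusted p = 3.5e-06)). MNC1 was lower in untreated anc1Δ than in untreated wildtype and higher after MMS, with log2 responses of -0.18 in wildtype and 1.90 in anc1Δ.

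YHB1, the nitric oxide oxidoreductase flavohemoglobin, and TRR1, thioredoxin reductase, were also called higher at 1.14 and 0.83, and other probe sets of YHB1 gave 0.36, 1.03 and 1.38. Against wildtype, YHB1 in anc1Δ stood at -0.93 untreated and 0.20 under MMS, and TRR1 at -0.29 and 0.54. Of 30 genes of thioredoxin, glutathione and oxidative stress GPX2, YHB1 and TRR1 were higher and 5 lower, beside 9.58% and 14.2% of all genes. TSA2, a peroxiredoxin, was among the lower (-1.66), though in anc1Δ it stood above wildtype both untreated (2.44) and under MMS (0.78). The list had no common direction (median -0.15, and -0.089 without untreated wildtype replicate 3). Without treated wildtype replicate 2, 3 were lower. Of 6 aryl-alcohol dehydrogenase and old yellow enzyme genes 3 were higher (1 under quantile normalization) and 2 lower. AAD6 (1.57), AAD4 (0.76, lost without untreated wildtype replicate 1) and OYE2 (0.66, lost without untreated anc1Δ replicate 2) were higher, and AAD10 (-1.28) and AAD14 (-0.90, lost without any 1 of 7 arrays) lower. The AAD genes are close paralogs, so their probe sets may share signal. Multidrug resistance genes were mixed, with 4 of 20 higher and 6 lower, beside 9.58% and 14.2% of all genes. The lower ones include YOR1 (-0.82), whose other probe sets gave -0.45 to 0.57. RSB1, a sphingoid base transporter, was at 1.86 where it fell by 2.25 in wildtype, and PDR15, a drug efflux pump, at -1.73. Against wildtype, RSB1 in anc1Δ stood at -1.62 untreated and 0.24 under MMS, and PDR15 at 0.98 and -0.76.

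Ribosome genes fell less in anc1Δ. Of 83 ribosome biogenesis genes 52 were called higher and none lower (median 0.72), with median responses of -1.20 in wildtype and -0.40 in anc1Δ. ENP2, which acts in small subunit processing, measured 422, 486 and 426 in untreated wildtype, 208, 180.2 and 164 in MMS-treated wildtype, 354, 321 and 339 in untreated anc1Δ and 367, 351 and 334 in MMS-treated anc1Δ. It fell in wildtype, and in anc1Δ treated and untreated arrays overlapped (difference 1.33 (SE 0.15, limma adjusted p = 4.5e-05)). HAS1, a helicase of ribosome assembly, fell in both strains (-2.66 and -1.43). Of 81 cytosolic ribosomal protein genes 42 were higher and 1, RPL15B, lower (median 0.60). RPS22B measured 2392, 2764 and 2736 in untreated wildtype, 324, 356 and 367 in MMS-treated wildtype, 2999, 2675 and 2688 in untreated anc1Δ and 1144, 1171 and 1019 in MMS-treated anc1Δ, a fall in both strains that was smaller in anc1Δ (difference 1.59 (SE 0.14, limma adjusted p = 8.6e-06)). Many of these genes are near-identical pairs, whose probe sets can share signal. RNA polymerases I and III had 9 of 24 higher, with RPA190 and RPA135, the large subunits of polymerase I, at 0.92 and 1.09, and 6 of 32 translation factors were higher. Mitochondrial ribosomal protein genes had 2 of 56 higher and 1 lower, shares below the 9.58% and 14.2% of all genes. The lower one was not called under median centring.

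Small nucleolar RNAs, which guide the modification and cleavage of ribosomal RNA, were looked at after their values were seen. Of 57, 37 were higher and none lower (median 0.81). SNR128, the U14 RNA of 18S rRNA processing, measured 487, 437 and 414 in untreated wildtype, 123.5, 119 and 134 in MMS-treated wildtype, 1087, 979 and 951 in untreated anc1Δ and 1217, 1249 and 1138 in MMS-treated anc1Δ. It fell in wildtype and was above every wildtype array on all anc1Δ arrays (difference 2.09 (SE 0.13, limma adjusted p = 9.5e-07)). The probe set of RDN18-1, the 18S rRNA, measured 1738, 2452 and 1410.1 in untreated wildtype, 32.6, 41.6 and 35.3 in MMS-treated wildtype, 334, 385 and 353 in untreated anc1Δ and 73.1, 55.3 and 37.7 in MMS-treated anc1Δ. It fell in both strains, from a lower untreated level in anc1Δ to treated levels that overlapped (difference 2.90 (SE 0.32, limma adjusted p = 4.5e-05)). The rDNA repeats are near-identical, ribosomal and nucleolar RNAs lack the poly(A) tails that standard labelling primes on, and the RNA integrity ratios above moved with MMS as well. Their part in these values was not tested.

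Cell cycle genes moved in both directions. CLN2, a G1 cyclin, measured 243, 289 and 284 in untreated wildtype, 65.2, 61.9 and 63.6 in MMS-treated wildtype, 247, 223 and 217 in untreated anc1Δ and 195, 179 and 213 in MMS-treated anc1Δ. It fell on every treated wildtype array and stayed above all of them on the treated anc1Δ arrays (difference 1.86 (SE 0.14, limma adjusted p = 2.5e-06)). CLN1, the other of the pair, was at 1.05, while SWI4, an activator of both, was at -0.79. Of 26 G1/S genes 6 were higher and 4 lower, beside 9.58% and 14.2% of all genes. The lower count was 2 under median centring and under quantile normalization, 1 without treated anc1Δ replicate 2 and 6 without untreated wildtype replicate 3. HO, the mating type endonuclease, measured 183, 249 and 376 in untreated wildtype, 33.8, 32.6 and 36.0 in MMS-treated wildtype, 51.6, 60.2 and 50.8 in untreated anc1Δ and 39.4, 46.9 and 46.7 in MMS-treated anc1Δ. It fell in wildtype to below the level of anc1Δ, where it was low from the start (difference 2.63 (SE 0.28, limma adjusted p = 3.6e-05)). Of 19 G2/M genes 8 were higher and 2, CDC20 and DBF2, lower (median 0.49, and 0.29 without untreated wildtype replicate 3). CLB2, a mitotic cyclin, went from 39.0, 46.0 and 67.4 to 12.9, 12.6 and 13.1 in wildtype and from 17.0, 17.3 and 17.2 to 13.7, 11.5 and 13.1 in anc1Δ. The treated levels of both strains overlapped below the 25th percentile of probe sets, so the difference of 1.51 came with the unequal untreated levels. SWI5, the mitotic exit activator, was at 1.22 and BUD4 at 1.01. In RNA from whole cultures, fewer cells in a phase and less RNA per cell cannot be told apart.

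CYC1 and several genes that respond to oxygen or heme fell less in anc1Δ. CYC1 was counted in the respiratory chain and ATP synthase list. There 2 of 38 were higher and 4 lower (2 under median centring), beside 9.58% and 14.2% of all genes. CYC1, cytochrome c, measured 440.2, 539.9 and 545 in untreated wildtype, 18.7, 20.3 and 21.1 in MMS-treated wildtype, 475, 465 and 474 in untreated anc1Δ and 77.1, 104.2 and 109.8 in MMS-treated anc1Δ. The untreated arrays of the strains overlapped, and after MMS all 3 anc1Δ arrays lay above wildtype (difference 2.36 (SE 0.19, limma adjusted p = 3.5e-06)). ANB1, OLE1, HEM13 and TIR1, genes that respond to oxygen or heme, were at 1.76, 1.34, 1.38 and 1.496. With AAC3 they make 5 of 16 higher in the heme and oxygen list. Against them 1 was lower, HEM1, whose call was lost under median centring and without any 1 of 7 arrays. The median difference of this list was 0.27, beside -0.08 over all genes, with 10 genes above zero and 6 below. Its median response was -0.71 in wildtype and -0.71 in anc1Δ, with 9 genes falling in each strain. Untreated anc1Δ was lower than untreated wildtype for ANB1, HEM13 and TIR1 (-1.01, -1.68 and -1.63). IZH4, a membrane protein of zinc homeostasis, was at 2.36 and ATF2, an alcohol acetyltransferase, at 1.86. Both were low in untreated anc1Δ, with IZH4 at 45.6, 58.1 and 50.4 there and 375, 357 and 312 in untreated wildtype. Of 17 purine synthesis genes 8 were higher and none lower (median 0.58), led by AAH1, adenine deaminase, at 1.63. Its untreated level was lower in anc1Δ (-1.82), and its treated arrays overlapped between the strains near that percentile. IMD2 and IMD4, IMP dehydrogenases of a near-identical family, were at 1.02 and 1.28.

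Nutrient uptake and recycling genes were among the lower ones. FIT2, a cell wall mannoprotein that retains iron-siderophores, measured 182, 144 and 178 in untreated wildtype, 1529, 1307 and 1289 in MMS-treated wildtype, 2346, 2327 and 2206 in untreated anc1Δ and 3152, 2898 and 3538 in MMS-treated anc1Δ. It rose in wildtype and was high in anc1Δ before MMS, above treated wildtype on every array (difference -2.56 (SE 0.16, limma adjusted p = 9.5e-07)). Of 20 iron uptake genes 11 were lower, SIT1 at -2.04 and TIS11 at -1.41 among them, and FRE1 was higher (0.72, lost without treated anc1Δ replicate 1). Of 22 autophagy genes 10 were lower (median -0.55), with ATG34 and ATG19, receptors of selective transport to the vacuole, at -1.26 and -1.19. Nitrogen catabolite and allantoin genes had 11 of 22 lower and 1 higher, with CAN1, the arginine permease, at -1.22. In phosphate uptake and storage 4 of 17 were lower and 2 higher (1 without untreated wildtype replicate 2), beside 14.2% and 9.58% of all genes. PHM8, a phosphatase, measured 259.7, 240.4 and 188 in untreated wildtype, 1094, 1257 and 1247 in MMS-treated wildtype, 361, 294 and 497 in untreated anc1Δ and 390.5, 344 and 413 in MMS-treated anc1Δ, a rise in wildtype with overlapping groups in anc1Δ (difference -2.37 (SE 0.24, limma adjusted p = 3.0e-05)). PHO3, an acid phosphatase, was at 1.76 and fell in both strains.

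**Figure D5:**
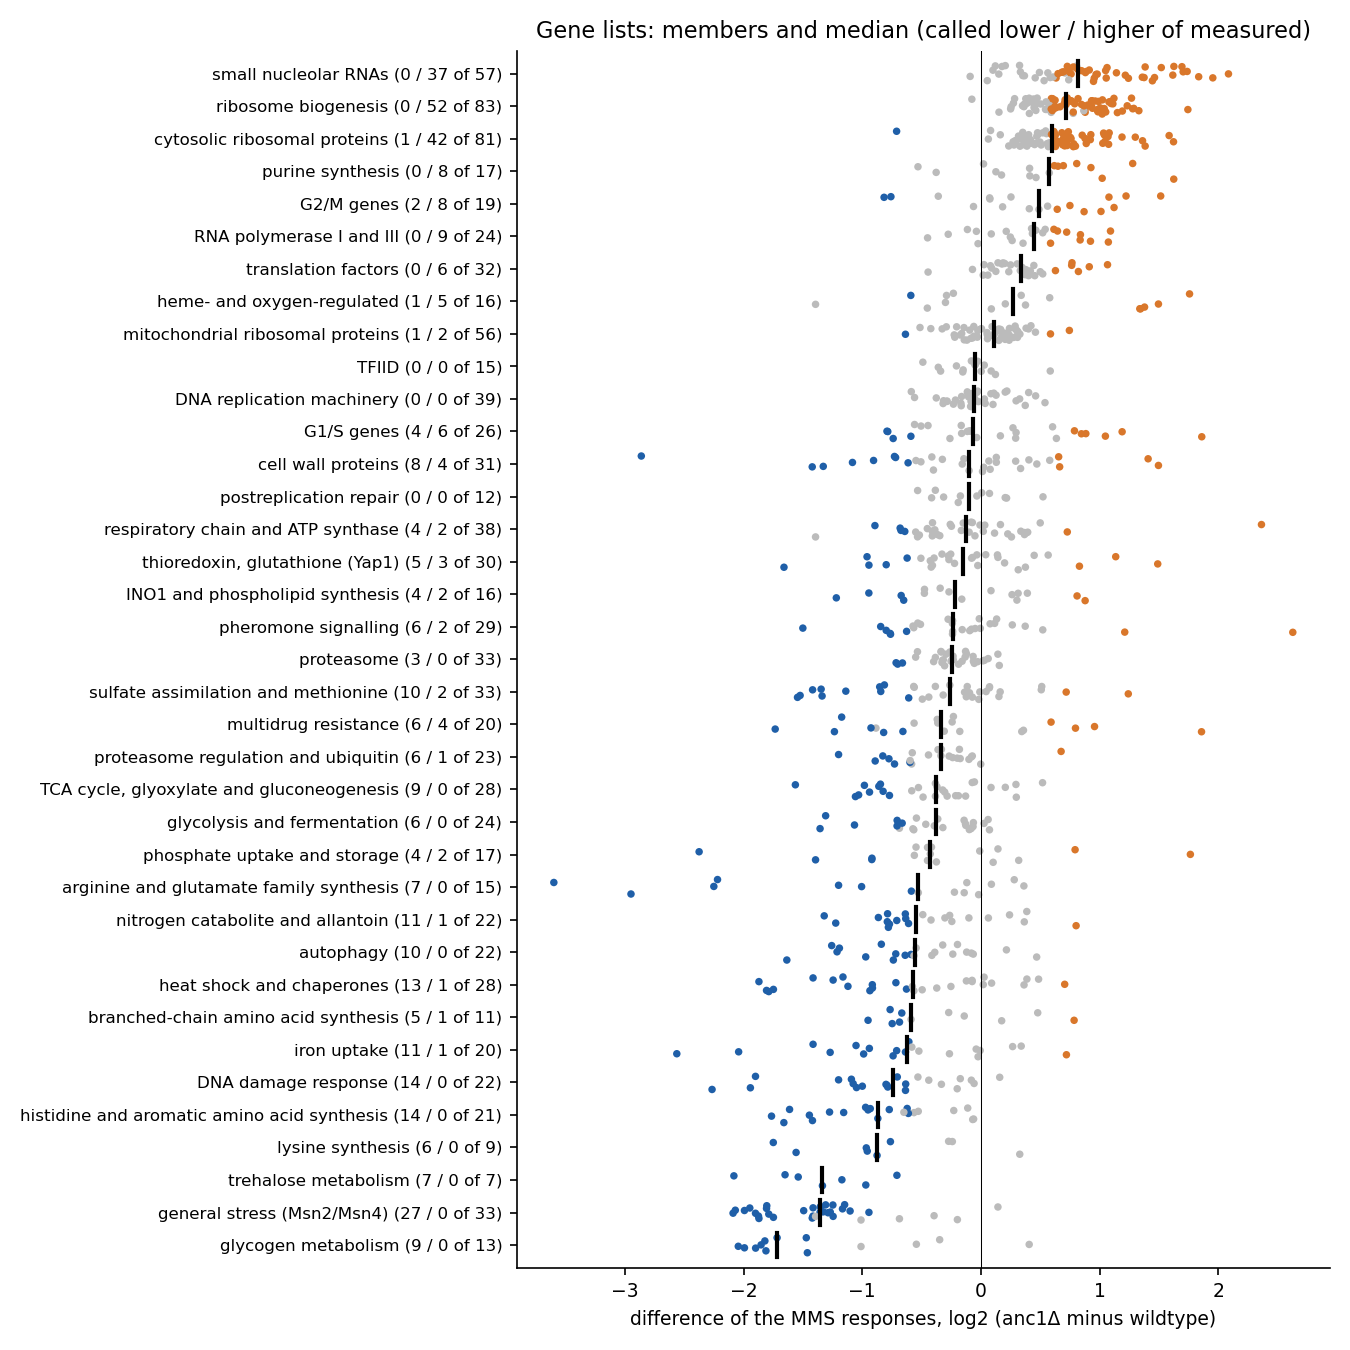
Difference of the MMS responses, log2, anc1Δ minus wildtype (x axis), for each measured gene of 37 lists, with the list median as a bar; blue and orange points were called lower and higher, and the counts stand beside each name. Glycogen, general stress and trehalose genes lie lowest, and small nucleolar RNAs and ribosome biogenesis genes highest. The lists shown are those with more called genes, together with postreplication repair, proteasome, DNA replication machinery, TFIID and mitochondrial ribosomal proteins. Other lists with few called genes are left out.

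For 22 genes the response was called in opposite directions in the strains, 21 of them up in wildtype and down in anc1Δ. The 6 with the largest differences were ARG1, ARO5, RTC2, IGD1, RTN2 and AIM17. ARO5 measured 82.4, 90.2 and 62.4 in untreated wildtype, 407, 416 and 391 in MMS-treated wildtype, 36.4, 42.3 and 53.8 in untreated anc1Δ and 21.9, 22.8 and 27.6 in MMS-treated anc1Δ, with no overlap between treated wildtype and any other array (difference -3.25 (SE 0.22, limma adjusted p = 1.3e-06)). RTC2, IGD1, RTN2 and AIM17 had differences between -2.25 and -2.03 and larger SE (0.41 to 0.46), with untreated wildtype replicate 3 the lowest untreated wildtype array in each, and their calls held without it. SNR74, a small nucleolar RNA, fell in wildtype and rose in anc1Δ (-0.75 and 0.61). Other low differences among the named genes were YNR068C (-3.12), PIR3 of the cell wall (-2.86), TMT1, trans-aconitate methyltransferase (-2.86), BOP2 (-2.66), GCY1, a glycerol dehydrogenase (-2.64), DPI8 (-2.43), GID11 (-2.42) and SNZ1 of vitamin B6 synthesis (-2.26). Against wildtype, PIR3, GCY1 and DPI8 in anc1Δ stood at 3.36, 2.88 and 3.48 untreated and at 0.50, 0.24 and 1.05 under MMS. YNR068C, TMT1, BOP2, GID11 and SNZ1 stood below wildtype under MMS (-2.46, -1.89, -1.93, -1.26 and -2.47).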

How the data were processed

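The 12 Affymetrix YG-S98 arrays were grouped by sample title, 3 to a group. The authors normalized the arrays with the Robust Multichip Average (RMA) algorithm, and the deposited intensity values are on a linear scale. Which arrays were normalized together is not stated. Log2 of each value was taken. Of 9335 probe sets, 60 control probe sets were left out, and 6504 of the 9275 tested had 1 gene name, 328 several and 2443 none. Names were updated through RefSeq, which gave 5656 genes, 315 of them with several probe sets.

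The difference of the responses was fitted with limma 3.58.1 in R 4.3.3, with 4 group means and Benjamini-Hochberg adjustment over all tested probe sets, after a test on simulated data. A call needed an adjusted p under 0.05 and 1.5-fold, the limits in the study's methods, whose local pooled error test was run as an alternative, with other scalings, filters, fold limits, a replicate block and each array left out. RMA compresses low intensities, so small values understate a fold, and strains with unequal untreated levels can then differ in response. The 59 gene lists and the contrast were chosen with earlier results of these data known, and list counts without arrays and the nucleolar RNA list were added after seeing them. Named genes were the 14 highest and 14 lowest differences among calls that held without each array and whose highest group mean lay above the 25th percentile, up to 4 called genes a list by p, a set of repair genes, and up to 6 with opposite responses. Others named here were chosen after their values were seen. Promoter sequences were not analysed here.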

Additional observations from a re-analysis of the deposited data

Results flagged for a closer look

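The MMS response differed between wildtype and anc1Δ, by limma's test of the difference itself, for 542 genes that were higher in anc1Δ and 805 that were lower. The response was called in opposite directions for 22 genes. The highest differences (log2, anc1Δ minus wildtype) among genes whose call held without each of the 12 arrays were those of YDL218W (3.04), RDN18-1 (2.90), HO (2.63), OSI1 (2.46), CYC1 (2.36), IZH4 (2.36), SFG1 (2.09), SNR128 (2.09), MNC1 (2.08), SNR72 (1.95), ATF2 (1.86), CLN2 (1.86), RSB1 (1.86) and SNR41 (1.83). The lowest were those of ARG1 (-3.60), ARO5 (-3.25), YNR068C (-3.12), ARG3 (-2.95), PIR3 (-2.86), TMT1 (-2.86), BOP2 (-2.66), GCY1 (-2.64), FIT2 (-2.56), DPI8 (-2.43), GID11 (-2.42), PHM8 (-2.37), RNR3 (-2.27) and SNZ1 (-2.26).

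A signal outside the tested probe sets also differed between the strains. The 3'/5' ratio of the SRB4 control probe sets rose less with MMS in anc1Δ than in wildtype, with a difference of -0.73 on the log2 scale, while those of actin and SPT15 gave -0.16 and 0.11. Its part in the gene results was not tested.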

How the results depend on the processing

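Of the 2 counts of called genes, those without each array in turn ran from 469 to 592 for higher and from 714 to 896 for lower responses. With no fold limit 1224 genes were lower and 786 higher, and with a limit of 2-fold 285 were lower and 155 higher. Under the replicate block, with an effect for each replicate number shared by both strains, the counts were 539 higher and 807 lower. The replicate numbers were not taken as pairs. In 12 of 18 same-numbered pairs the correlation of deviations was 0.1 or less (range -0.46 to 0.37). These 18 include pairs across the strains, which came from separate colonies. Within a strain, untreated and treated anc1Δ arrays of the same number did correlate (0.37, 0.24 and 0.17), those of wildtype less so (0.077, -0.13 and 0.25). Pairing of untreated with treated arrays within each strain was not tested, and the block counts do not stand in for it. The local pooled error test of the study's methods gave 528 higher and 702 lower, quantile normalization 586 and 715, a prior that follows intensity 548 and 812, averaging all probe sets of a gene 549 and 788, and leaving out the dimmest 25% of probe sets 529 and 795. Of 190 named genes with a call, 21 lost it without 1 array, 10 under median centring, 10 under quantile normalization, 15 under the pooled error test and 1 under the block. YOR1 was -0.82 from its brightest probe set but 0.0034 as the average of its probe sets. Differences near 0 that turned sign, none of them called, were MAG1 (0.0034 under median centring, -0.18 to 0.027 without 1 array), DDR48 (0.026 under median centring) and MMS2 (-0.028 to 0.063 without 1 array). The cause of these changes was not tested. The 3 arrays a group limit the precision, with a median SE of 0.16 on the log2 scale, and near the dim end a difference can be understated or, where untreated levels differ, overstated. Among the 14 highest and 14 lowest differences, YDL218W, CYC1, SFG1, SNR72, RSB1, ARO5 and ARG3 had a group mean below the 25th percentile. So did other genes named here, AAD6 and CLB2 among them.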
